A study of Mus musculus with 6 samples.

Results

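The Ms4a genes analysed here are 8 members of the membrane-spanning 4-domain family on mouse chromosome 19, namely Ms4a1, Ms4a2, Ms4a3, Ms4a4a, Ms4a6b, Ms4a6c, Ms4a6d and Ms4a7. They were found by symbol among the 47937 rows of the count table, and the family was chosen by the strong fall of the Ms4a3 counts in Tlx3cko dorsal root ganglia (DRGs). The change of Ms4a3 between the genotypes is therefore given as a description and without a test. RNA of cervical, thoracic and lumbar DRGs gave 3 control and 3 Tlx3cko libraries, from mice of the C57BL/6 strain aged about 2 months. The Tlx3cko mice carried floxed Tlx3 alleles and SNS-cre, a Cre driven by the promoter of Nav1.8 (Scn10a), which is active in nociceptive neurons from late gestation, so glia, blood cells and neurons without Nav1.8 kept their Tlx3 alleles. The labels call the controls wild type, and no Cre or floxed allele is given for them.

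Ms4a proteins cross the membrane in 4 passes and are best known from blood and immune cells. Ms4a1 encodes CD20 of B cells, and Ms4a2 encodes the beta chain of the high-affinity IgE receptor of mast cells and basophils. Ms4a3 encodes HTm4, a regulator of the cell cycle found in granulocyte and monocyte precursors. Ms4a4a, Ms4a7 and the Ms4a6 genes are mostly known from macrophages and microglia, and members of the family also occur in a class of olfactory neurons.

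The libraries held between 11458299 and 18775628 counts. Tlx3 itself averaged 2057 ± 173 normalized counts (SD, n = 3) among controls and 1495 ± 141 among Tlx3cko libraries, and these counts cover the whole gene, not only its deleted part. Normalized counts are counts scaled by TMM, a factor that removes differences in library size and composition, to the mean effective library size. Scn10a, the gene whose promoter drives the Cre, averaged 24208 ± 1097 and rose to 32659 ± 2160 (a log2 fold change of 0.43 with a standard error of 0.07). Control replicates 1 and 2 had 591 and 493 counts of Xist and 0 of the Y-linked gene Ddx3y, whereas control replicate 3 and all Tlx3cko libraries had at most 2 of Xist and at least 273 of Ddx3y, so the sexes were not balanced. Control replicate 3 is therefore also compared alone with the Tlx3cko libraries.

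Ms4a2 and Ms4a3 are direct neighbours. Both lie on the minus strand of chromosome 19 in the GRCm38 build, Ms4a2 (ENSMUSG00000024680) from 11615523 to 11623719 and Ms4a3 (ENSMUSG00000024681) from 11629496 to 11640851, with 5.78 kb between them. The other 6 members lie at lower positions of the same cluster, between 11249675 (Ms4a1) and 11604849 (Ms4a6d). The annotation merges the exons of Ms4a2 into 8 blocks and those of Ms4a3 into 7, and none of these bases is shared with another gene on either strand. No other gene had an annotated transcript that matched either of them over 100 bases or more at 98% identity, and no match between the 2 genes was found. The 250 bases before the start of each gene (RefSeq, GRCm38.p6, minus strand) are shown because these neighbours were low together in Tlx3cko DRGs. They are chr19:11623720-11623969 for Ms4a2 and chr19:11640852-11641101 for Ms4a3, and capitals mark AGATAA or its reverse complement, letters that GATA factors of blood cells are known to bind.
Ms4a2: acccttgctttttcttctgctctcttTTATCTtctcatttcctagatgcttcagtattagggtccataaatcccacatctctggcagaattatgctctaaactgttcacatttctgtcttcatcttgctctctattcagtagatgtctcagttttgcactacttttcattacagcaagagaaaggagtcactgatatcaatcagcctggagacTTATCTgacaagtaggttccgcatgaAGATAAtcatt
Ms4a3: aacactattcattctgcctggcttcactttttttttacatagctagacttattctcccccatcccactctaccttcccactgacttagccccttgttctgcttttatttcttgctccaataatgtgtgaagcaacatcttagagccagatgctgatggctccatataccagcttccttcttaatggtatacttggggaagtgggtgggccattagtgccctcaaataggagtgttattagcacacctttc
AGATAA occurred at 3 places before Ms4a2, where its first base lay 224, 37 and 11 bases before the start, and at 0 places before Ms4a3. Of all 32851 windows of this length in the RefSeq table, 3281 held AGATAA on either strand and 0.09% held it 3 or more times. The homeodomain core TAATTA, present in 4.8% of all windows, and the related CAATTA, present in 7.2%, were absent from both. The E-box CANNTG, present in 66.2% of all windows, occurred 1 time before Ms4a3, 105 bases from its start, and 0 times before Ms4a2. Upstream windows were listed for 6 of the 8 members. TAATTA occurred in 1 of the 2 windows of Ms4a7, 52 bases before its start, and CAATTA in that of Ms4a6b, 127 bases before its start.

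The counts of Ms4a3 were 62, 137 and 141 for control replicates 1, 2 and 3, against 2, 4 and 4 for Tlx3cko replicates 1, 2 and 3, the order used for all counts that follow. Every Tlx3cko library lay far below every control library. Normalized, it averaged 105.3 ± 35.4 (SD, n = 3) in control DRGs against 3.70 ± 1.67 in Tlx3cko DRGs, so that 3.52% of the control level was kept. The log2 fold change from the edgeR model was -4.84 with a standard error of 0.43. Leaving out single libraries gave values from -5.11 to -4.51. Against control replicate 3 alone it was -4.93. Among the 13373 genes averaging 50 or more normalized counts, 5 had a lower log2 fold change than Ms4a3, namely Tsix, Xist, Mrgprb4, Nppb and Sst. In these bulk samples, fewer cells that express a gene and less RNA per cell cannot be told apart.

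**Figure D1:**
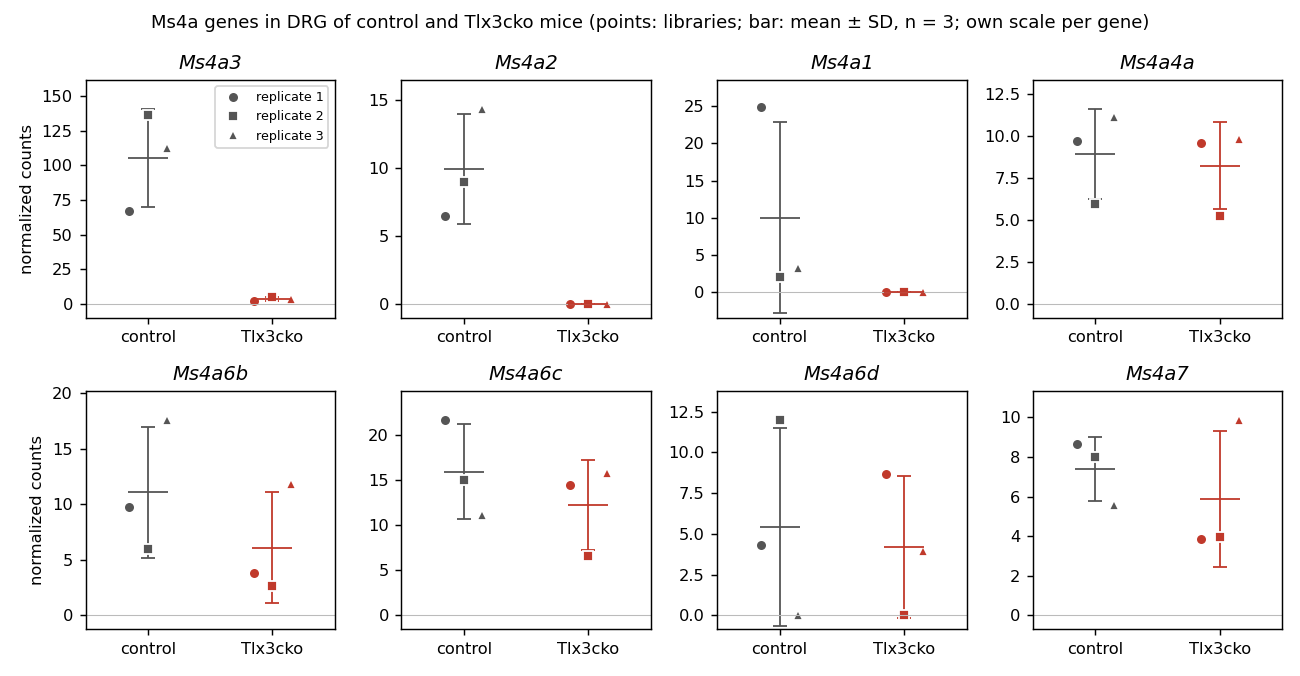
Normalized counts of the 8 Ms4a genes (y axis, own scale for each gene) in control and Tlx3cko DRGs (x axis). Points are libraries, with symbols for the replicate number, and bars show the mean and SD of 3 libraries. Ms4a3 sits between 66.9 and 136.6 in control and at 5.25 or less in Tlx3cko libraries, Ms4a2 and Ms4a1 are at 0 in every Tlx3cko library, and the groups overlap for the other 5 genes.

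The counts of Ms4a2 were 6, 9 and 18 across the controls and 0 in each Tlx3cko library. The groups did not overlap, and a count of 0 allows up to 3 counts per library. With the Tlx3cko libraries set to that limit, Ms4a2 was at least 3.05-fold lower, a bound that moved to between 2.37 and 3.58 when single controls were omitted and covers counting error only. The adjusted p was 0.0257 (quasi-likelihood test of edgeR, adjusted over 20006 genes by Benjamini-Hochberg). The call rested on few counts. With single libraries omitted it was kept only without control replicate 1 (adjusted p = 0.0308, edgeR) and lost in the other 5 fits, with adjusted p of up to 0.0946 without control replicate 3. Against control replicate 3 alone it was lost too (0.0752). Of all genes tested, 50 (0.25%) had 0 counts in every Tlx3cko library.

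The counts of Ms4a1 were 23, 2 and 4 across the controls and 0 in each Tlx3cko library. Most of its counts thus came from control replicate 1, and the other controls were at or near the limit of 3 counts. It was at least 3.07-fold lower with all controls, but without control replicate 1 its control mean of 2.59 normalized counts was itself under the limit of 3.26, so no bound could be given. It did not pass the threshold (adjusted p = 0.0926 in edgeR, and between 0.00193 and 0.22 over its alternatives). The B cell list without Ighm summed to 130.6, 53.9 and 31.1 normalized counts across the controls against 35.6, 52.5 and 46.3 across the Tlx3cko libraries, highest in control replicate 1 and with overlap between the groups. Within the list, Cd22 was even across the controls and Ighm was lowest in control replicate 1 among all libraries, with values given further on. The part of B cells in the counts of Ms4a1 was not tested.

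The 5 members known from macrophages showed no such pattern. Ms4a4a had 9, 6 and 14 counts across the controls against 10, 4 and 10 across the Tlx3cko libraries, and Ms4a6c had 20, 15 and 14 counts against 15, 5 and 16. Ms4a6b had 9, 6 and 22 counts across the controls against 4, 2 and 12 across the Tlx3cko libraries. For Ms4a7 the counts were 8, 8 and 7 against 4, 3 and 10. Ms4a6d was scattered in both genotypes, with 4, 12 and 0 counts across the controls against 9, 0 and 4 across the Tlx3cko libraries. The groups overlapped for all 5 genes, and their log2 fold changes lay between -0.84 (Ms4a6b, standard error 0.71) and -0.11 (Ms4a4a, standard error 0.61), each smaller than 1.5 times its standard error. None passed the threshold, with adjusted p between 0.685 and 0.967 in edgeR. Summed, they had 54.0, 46.9 and 45.5 normalized counts in control replicates 1, 2 and 3 and 40.4, 18.4 and 51.2 in Tlx3cko replicates 1, 2 and 3.

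Of the 7 members other than Ms4a3, 1 passed the threshold, Ms4a2, which was lower. With Ms4a3, whose place past the threshold follows from how the family was chosen, the count was 2 of 8. Of all 20006 genes tested, 4.25% passed in either direction, 2.56% lower and 1.69% higher. In 3 of the 8 members the groups did not overlap, where 19.7% of all genes tested showed no overlap, 10.8% with Tlx3cko lower and 8.87% with it higher. The median log2 fold change was -0.59 over the members and -0.00365 over all genes tested. Since Ms4a3 chose the family in this comparison, nothing is read from these counts. Apart from Ms4a3 each member had at most 85 counts over the 6 libraries, and of the 4185 genes tested at this depth or less 0.478% passed.

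With Ms4a3 low, the make-up of the family counts differed, which follows from how the family was chosen. In control replicates 1, 2 and 3, Ms4a3 held 44.0%, 70.3% and 64.1% of all counts of the 8 genes (exact 95% intervals 35.6 to 52.6, 63.3 to 76.6 and 57.4 to 70.4). In Tlx3cko replicates 1, 2 and 3 it held 4.55%, 22.2% and 7.14% (0.555 to 15.5, 6.41 to 47.6 and 1.98 to 17.3). The intervals cover counting error only.

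Compared per length, as counts divided by annotated exon length and library size (RPKM), Ms4a3 was the highest of the 8 genes in control DRGs, with a level of 3.73 ± 1.26 RPKM (SD, n = 3). It was 5.22 times as high as Ms4a4a, the next in order at 0.716 ± 0.214, and their libraries did not overlap. Ms4a6c followed at 0.518 ± 0.172 and overlapped with Ms4a4a. Ms4a2 came next with a level of 0.236 ± 0.0956 RPKM, below every control library of Ms4a6c. Ms4a6d, Ms4a6b, Ms4a7 and Ms4a1 followed with mean levels between 0.209 and 0.108 RPKM, and from Ms4a2 down each overlapped with the next. In Tlx3cko DRGs Ms4a4a was the highest at 0.658 ± 0.207 RPKM, and Ms4a3, at 0.131 ± 0.0594, came between Ms4a6d and Ms4a6b and overlapped with both.

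The genes around Ms4a3 were set beside it. Within 500 kb on either side lay 57 other genes of the table, of which 16 could be tested and 1, Ms4a2, passed the threshold, where 4.25% of all genes tested passed. On the other side of Ms4a3 the nearest gene tested was Mrpl16, a mitochondrial ribosome subunit 130 kb away, with 254, 291 and 295 counts across the controls against 267, 184 and 273 across the Tlx3cko libraries. It changed by -0.06 on the log2 scale, less than its standard error of 0.14 (adjusted p = 0.911, edgeR). On the near side, Ms4a6d lay beyond Ms4a2 at a distance of 24.6 kb and did not pass, as given above. The noncoding gene BE692007, with between 53 and 145 counts per library, covers 53.1% of the exonic bases of Ms4a6c on the other strand. Whether the authors' counting used strand is not given in the sources used here, so their reads may not be separate.

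**Figure D2:**
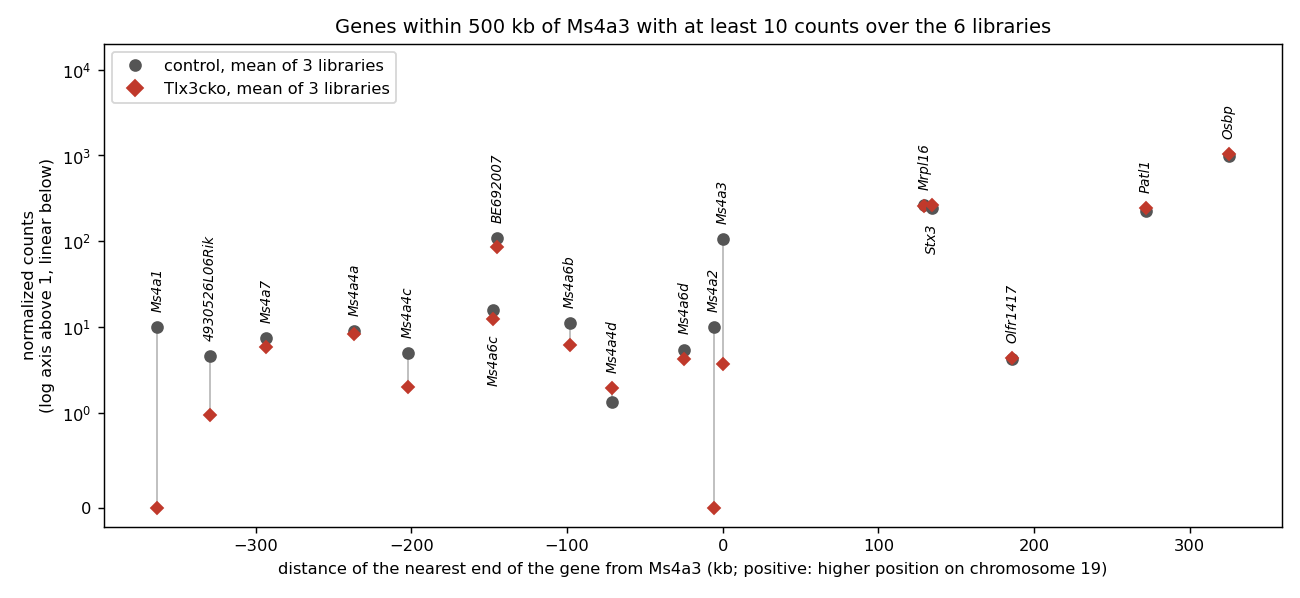
Mean normalized counts in control (circles) and Tlx3cko DRGs (diamonds) on an axis that is logarithmic above 1 and linear below, for the genes within 500 kb of Ms4a3 that had at least 10 counts over the 6 libraries, by their distance from Ms4a3 in kb. Ms4a3 and Ms4a2, 5.78 kb apart, and Ms4a1 show the widest gaps, while Mrpl16 and the genes beyond it sit at nearly the same level in both genotypes.

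Further genes of the family were hardly detected. Of 16 listed, 13 were in the table, and 9 of these had at most 3 counts in every library, among them 6 with 0 in all. Ms4a4c had 4, 9 and 2 counts across the controls against 0, 0 and 6 across the Tlx3cko libraries (adjusted p = 0.75 in edgeR), and Ms4a4d had 5 counts in control replicate 3, 6 in Tlx3cko replicate 1 and 0 elsewhere. The related genes Tmem176a and Tmem176b on chromosome 6, neighbours of each other that are known from dendritic cells, were far more abundant and went the other way. Tmem176a averaged 828.1 ± 29.1 normalized counts (SD, n = 3) among controls and rose to 1137 ± 70.8, by 0.46 ± 0.09 on the log2 scale (standard error, adjusted p = 0.00935, edgeR). Tmem176b had 1072 ± 60.3 and rose to 1402 ± 152, by 0.39 ± 0.10 (standard error, adjusted p = 0.0392, edgeR), a call that was lost with any 1 of the 6 libraries left out, with adjusted p between 0.0563 and 0.114. The Tmem176a call was lost without Tlx3cko replicate 3 (adjusted p = 0.0642, edgeR) and against control replicate 3 alone (0.16), where Tmem176b did not pass either (0.385).

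Ms4a2 works in a receptor with an alpha chain (Fcer1a) and a shared gamma chain (Fcer1g), and signals through the kinases Lyn and Syk. Fcer1a had 0 counts across the controls against 1, 0 and 0 across the Tlx3cko libraries, so the IgE-binding chain was at the limit of detection in both genotypes. Fcer1g had 41, 63 and 25 counts across the controls against 27, 8 and 36 across the Tlx3cko libraries and did not pass (adjusted p = 0.524 in edgeR). Lyn had 99, 127 and 118 counts against 27, 37 and 44, and fell from 109.2 ± 16.4 (SD, n = 3) to 39.3 ± 11.8 when normalized, by 1.48 ± 0.27 on the log2 scale (standard error, adjusted p = 0.0054, edgeR). It kept its call when any single library was omitted, but not against control replicate 3 alone (adjusted p = 0.159, edgeR). Syk fell from 80.3 ± 15.8 (SD, n = 3) to 33.1 ± 14.2 normalized counts, by 1.26 ± 0.31 on the log2 scale (standard error, adjusted p = 0.038, edgeR). The Syk call was lost without control replicate 2 or 3 or without Tlx3cko replicate 1 or 2, with an adjusted p of up to 0.162 in edgeR, and against control replicate 3 alone (0.104). Btk had 2, 12 and 8 counts across the controls against 3, 4 and 14 across the Tlx3cko libraries, and Lat had 0, 0 and 3 against 8, 0 and 0. Both were fitted above 0, by 0.10 and 1.47 on the log2 scale, and did not pass (adjusted p = 0.976 and 0.764 in edgeR). Of the 6 genes listed for this receptor, 5 were tested and 3 were fitted below 0. Past the threshold 2 were lower and 0 higher, where 4.25% of all genes tested passed.

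Markers of the blood and immune cells known for Ms4a genes were then set beside the members. Of the 57 genes in 7 such lists, 48 were tested, 0 were lower and 1 was higher past the threshold (edgeR), namely Ighm, the heavy chain of IgM, with 98, 139 and 183 counts across the controls against 316, 305 and 745 across the Tlx3cko libraries. Of the 48 genes, 42 had fitted log2 fold changes below 0. The median was below 0 in each of the 7 lists, from -1.65 for monocytes to -0.22 for T and NK cells. Over all genes tested the median was -0.00365 and 4.25% passed the threshold. The groups did not overlap in 10 of the 48 genes, where 19.7% of all genes tested showed no overlap. Against control replicate 3 alone Ighm did not pass (adjusted p = 0.0692, edgeR). Of the mast cell list 7 of 10 genes were tested and 0 passed, with Mrgprb2 at 0 counts in every library and Tpsab1 and Fcer1a at 1 or less. Without Kit, which DRG neurons also express, the list summed to between 106.1 and 189.5 normalized counts in control and between 90.5 and 99.4 in Tlx3cko libraries, so the sums did not overlap. Within it Cpa3, a mast cell protease, had 1, 11 and 10 counts against 6, 2 and 3. The tryptase gene Tpsb2 had 24, 29 and 30 counts across the controls against 8, 10 and 0 across the Tlx3cko libraries, without overlap, and did not pass (adjusted p = 0.177 in edgeR). Kit itself, with 1079, 1037 and 1469 counts against 829, 706 and 928, had an adjusted p of 0.0571 and passed with DESeq2 (0.0233). Of the 4 basophil genes 3 were tested and 0 passed, and Mcpt8 had 10 counts in control replicate 2 and at most 1 elsewhere. The part of mast cells and basophils in the counts of Ms4a2 was not tested.

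Genes of the precursors in which Ms4a3 is known had, as a list, counts in all 6 libraries. All 9 genes of the granulocyte precursor list were tested and 0 passed, and all 9 had fitted log2 fold changes below 0, with a median of -1.47. Their sum was 1482, 1371 and 490.6 normalized counts in control replicates 1, 2 and 3 and 171.3, 129.9 and 803.1 in Tlx3cko replicates 1, 2 and 3. The groups overlapped, since control replicate 3 lay below Tlx3cko replicate 3. The myeloperoxidase gene Mpo had 127, 57 and 22 counts across the controls against 5, 7 and 25 across the Tlx3cko libraries. Elane, neutrophil elastase, had 24, 14 and 1 counts against 6, 0 and 6. The monocyte list summed to between 640.5 and 1331 normalized counts in control and between 354.3 and 780.4 in Tlx3cko libraries, with overlap, and 0 of its 6 genes passed. Camp and Ly6c2 were close to the threshold (adjusted p = 0.0501 and 0.0712 in edgeR) and passed it without Tlx3cko replicate 3 (0.0065 and 0.04). Without control replicate 3, the only control with Ddx3y counts, they passed as well (0.0149 and 0.0436). So did Mpo (0.0147), which also passed without Tlx3cko replicate 3 (0.0468). Each of the 3 genes passed in only 2 of the 6 fits with a library left out. In the others the adjusted p reached 0.181 for Camp, 0.253 for Ly6c2 and 0.3 for Mpo (edgeR). Against control replicate 3 alone, their log2 fold changes were weaker, at -0.841, -1.09 and -0.434. With all libraries they were -2.53, -2.15 and -2.41. The part of these cells in the fall of Ms4a3 was not tested.

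**Figure D3:**
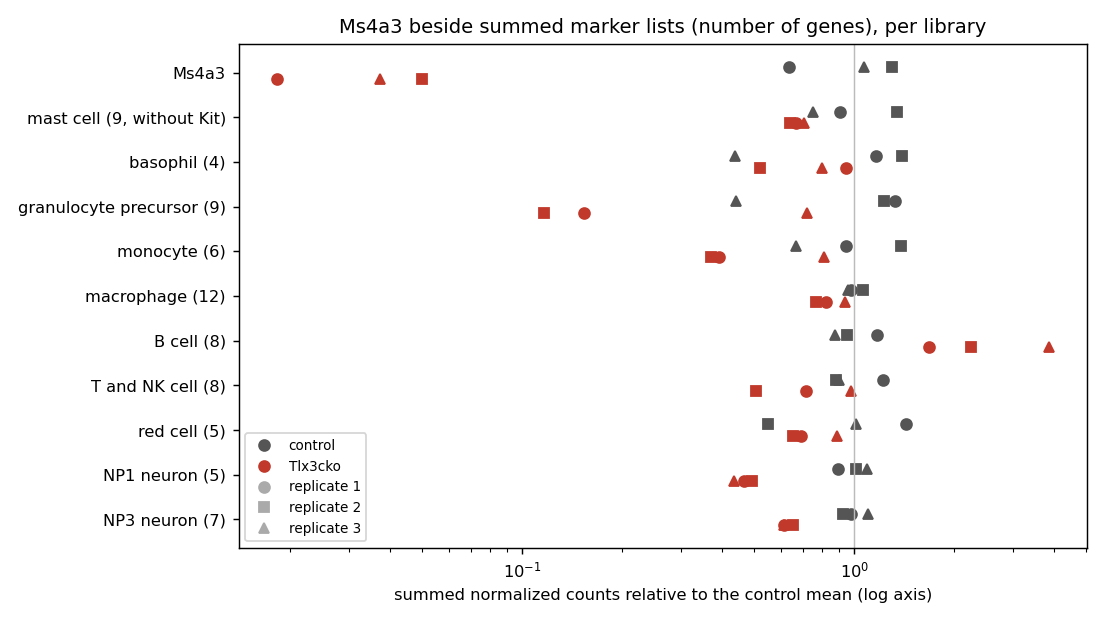
Summed normalized counts of marker lists in each library, relative to the mean of the controls (x axis, log scale). Ms4a3 alone is in the top row, and control libraries are above Tlx3cko libraries in each row. Drawn are the blood and immune cell lists, the red cell list and the NP1 and NP3 neuron lists. The mast cell list is drawn without Kit, and the B cell list with Ighm. With Ighm the B cell sums lay between 177.1 and 236.4 normalized counts in control and between 339.7 and 779.4 in Tlx3cko libraries. Without Ighm they overlapped, between 31.1 and 130.6 in control and between 35.6 and 52.5 in Tlx3cko libraries. The remaining lists, among them the other neuron lists and those of glia and muscle, are not drawn. Ms4a3 was chosen for its fall, so its place in the plot is no comparison with the lists. The Tlx3cko points of the granulocyte precursor list spread from 129.9 to 803.1 normalized counts.

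Macrophage genes, which would go with Ms4a4a, Ms4a6b, Ms4a6c, Ms4a6d and Ms4a7, were present as a list in all libraries. All 12 were tested and 0 passed, with a median log2 fold change of -0.37, and 11 were fitted below 0. In 3 of them, Adgre1 (-0.96), Cx3cr1 (-1.17) and C1qc (-0.50), the groups did not overlap, with adjusted p between 0.177 and 0.27 in edgeR. Of all genes tested, 19.7% showed no overlap. Csf1r, the receptor that macrophages need for survival, had between 396 and 606 counts per library and a log2 fold change of -0.08. The list summed to between 1220 and 1357 normalized counts in control and between 975.0 and 1195 in Tlx3cko libraries, without overlap. Of the 8 T and NK cell genes 5 were tested and 0 passed. Of the 8 B cell genes 6 were tested, and Cd22 was at 6, 6 and 7 counts across the controls and at 0 in each Tlx3cko library (adjusted p = 0.0641 in edgeR, at least 1.85-fold lower against the limit of 3 counts). The 5 red cell genes did not pass, and their sums overlapped, with between 1427 and 3719 normalized counts in control and between 1694 and 2295 in Tlx3cko libraries.

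The lists for neurons and glia place these values in the ganglion. All 5 genes listed for the nonpeptidergic class NP1 were lower past the threshold, as were 2 of 4 for NP2, 6 of 7 for NP3 and 4 of 5 for the TH+ touch neurons. Of all genes tested, 4.25% passed in either direction. The NP2 list was mixed, with 3 genes fitted below 0 and 1 that was higher without overlap and did not pass. The study described genes of these lists as changed in these same libraries, so these counts are not independent evidence of their direction. Its in situ hybridization on DRG sections is separate evidence. There the study reported loss of MrgprA3, Nppb, IL31ra and Sst signal, fewer MrgprD+ neurons and more MrgprC11+ neurons in Tlx3cko mice. The peptidergic and the myelinated list had 0 lower and 3 higher each, of 5 and 6 genes. Of the 5 genes each for satellite glia and Schwann cells 0 passed, and of 5 skeletal muscle genes 1 was higher.

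Genes with a pattern like that of Ms4a3 were looked for among 13372 genes averaging 50 or more normalized counts. Likeness was the mean absolute difference of the log2 profiles over the 6 libraries, each profile centred on its own mean, so that a small value marks 2 genes that move alike. The 5 nearest genes were Il31ra (0.48), Gm15462 (0.61), Hal (0.71), Mrgpra3 (0.72) and Sst (0.73). Il31ra, a subunit of the receptor for the itch cytokine IL31, had 273, 337 and 837 counts across the controls against 22, 13 and 19 across the Tlx3cko libraries. Hal, which encodes histidine ammonia-lyase, had 88, 243 and 242 counts against 16, 15 and 16. Gm15462, a predicted gene, had 79, 100 and 276 counts against 6, 18 and 8. Mrgpra3, the chloroquine receptor, and Sst, the neuropeptide somatostatin, are known from itch neurons of the classes NP2 and NP3. Of the blood and immune list genes that averaged 50 or more, the nearest was S100a8 of neutrophils. It ranked 36th with a difference of 1.39, and the next, Camp, ranked 38th with 1.41. Many genes of these lists averaged less and were not ranked. Among them were Mpo, Elane, Prtn3, Ctsg and Cebpe of granulocyte precursors and Ly6c2 of monocytes, so the ranks do not compare these lists as a whole with neuron genes. Because Ms4a3 was chosen for its fall, its nearest genes are those that also fell by a similar factor, and the likeness is a description of these 6 libraries.

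**Figure D4:**
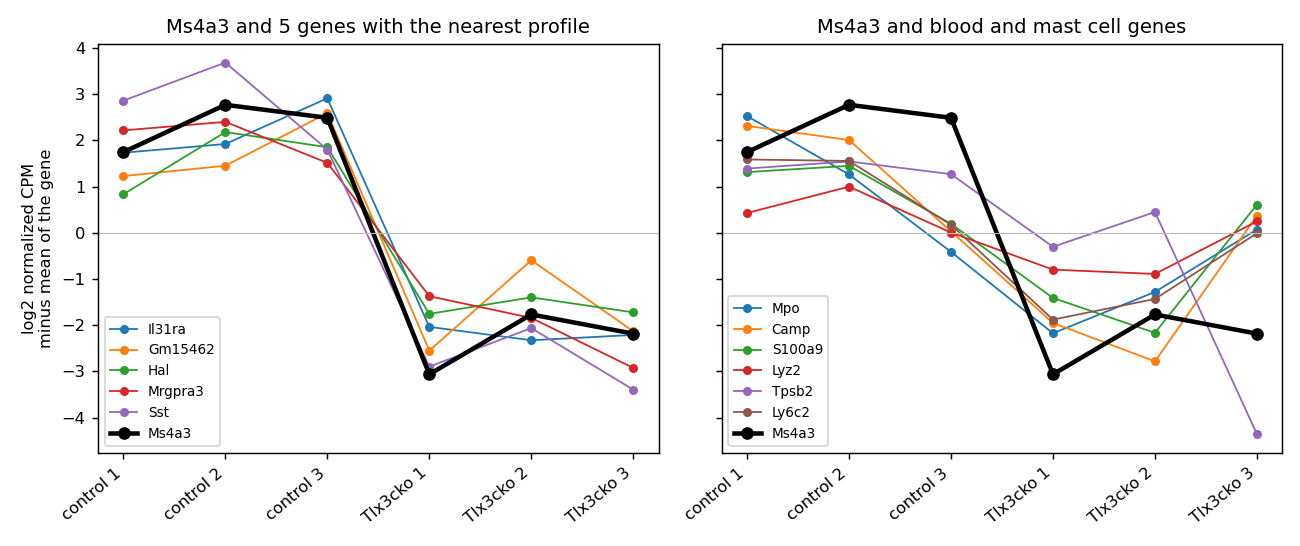
Log2 normalized CPM of Ms4a3 (black) minus its own mean over the 6 libraries, beside the 5 genes with the nearest profile (left) and 6 genes of granulocyte precursors, monocytes and mast cells (right), chosen after their values were seen. Lines only join the points of a gene. The genes on the left were picked for their likeness to Ms4a3, so the panels are shown as a description and not as a contrast. On the right, 5 of the 6 genes are higher in Tlx3cko replicate 3 than in the other Tlx3cko libraries, and Tpsb2 is at its lowest there.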

How the data were processed

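Total RNA of DRGs was extracted with the RNeasy Mini Kit, made into libraries with the NEBNext Ultra kit and sequenced on an Illumina instrument. The authors deposited raw read counts per gene without normalization. The submitters' processing notes name STAR 2.5.2a and mm10, and the counting program and the use of strand are not given in the sources used here. Of 47937 rows, 208 are loci outside the annotation with 0.245% of all counts. Names, positions and exon lengths come from GENCODE M21 (GRCm38). Replicate libraries differed by more than sampling noise (chi-square per degree of freedom 4.32 to 10.1). The p-values measure only the spread between these samples.

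edgeR tests covered genes reaching 10 counts in total, with version 4.0.16 in R 4.3.3 (TMM, glmQLFit, glmQLFTest) and a threshold of 0.05 on p adjusted by Benjamini-Hochberg. Alternatives used DESeq2 1.42.0, limma 3.58.1, other normalizations and filters, a block for the replicate number and omission of single libraries, and, chosen after seeing the data, control replicate 3 alone. In simulated counts for this comparison with 20006 genes, the changed genes were drawn only from those averaging at least 50 counts per library. There edgeR recovered 98% of genes changed 4-fold and 90% of those changed 2-fold, and 7.84% of its calls were false. Each member other than Ms4a3 averaged less than that, so these recovery rates do not cover those members. Transcripts were compared with blastn 2.17.0+. Named genes are the members, other Ms4a genes, Tlx3, Scn10a, the first genes of each marker list and list genes past the threshold, the 5 genes nearest to Ms4a3 in profile and its neighbours, and list genes beyond these were named after their values were seen. One gene that this rule names is not reported here. The members and lists were chosen with earlier results of these data known.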

Additional observations from a re-analysis of the deposited data

How the results depend on the processing

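The count of genes past the threshold was 851 and moved to 1529 without a minimum beyond 1 count, to 546 with control replicate 3 alone, and to between 488 and 938 with each library left out, lowest without Tlx3cko replicate 2. It was also over 1.5 times lower without control replicate 2 (530) and without Tlx3cko replicate 3 (512). Members past the threshold fell from 2 to 1 with DESeq2, which gave no adjusted p for Ms4a2, to 1 with at least 60 counts required, where 2 members were tested, to 1 with control replicate 3 alone, and to between 1 and 2 with each library left out. They rose to 3, with Ms4a1, without a minimum beyond 1 count. Genes past the threshold in the marker lists numbered 29, and 52 without a minimum beyond 1 count. Replicate numbers do not pair the samples: same-numbered libraries deviated from their group means with correlations across genes of -0.143, 0.000567 and -0.119. With the replicate block 1 member and 770 genes passed. Over 42 named genes and 564 refitted values, 496 kept direction and side of the threshold, 28 lost the call, 17 gained it and 23 reversed, all 23 in genes not past the threshold. The 496 include values that kept direction but had no adjusted p, such as that of Ms4a2 with DESeq2. With control replicate 3 alone the log2 fold change reversed to 0.153 for Ms4a6c, 5.21 for Ms4a6d (0 counts in that control), 0.0886 for Ms4a7, -0.913 for Ms4a4d, 0.287 for Fcer1g, 0.00169 for Mcpt4, 0.885 for Prss34, 2.19 for Elane, 0.812 for Cd79a, 0.301 for Cd68, 0.00377 for Csf1r and 0.12 for Mrpl16. Ms4a6d also reversed with limma-voom (0.36) and with the block (0.0771). With each library left out, log2 fold changes ranged from -0.322 to 0.121 for Ms4a4a, -1.25 to 1.12 for Ms4a6d, -0.071 to 1.01 for Ms4a4d, -0.649 to 0.171 for Cd79a, -1.26 to 0.0193 for Cd68 and -0.141 to 0.0102 for Mrpl16. The cause was not tested. Apart from Ms4a3 each member had at most 85 counts over the 6 libraries, which limits what these fits can show.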
